A study of Mus musculus with 28 samples.

Results

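The genes described here encode voltage-gated calcium channel subunits, voltage-gated sodium channel subunits, HCN channels and TRPC channels. They were picked by symbol: Cacna1 and Cacna2d genes, Cacnb1 to Cacnb4, Cacng1 to Cacng8, and all Scn, Hcn and Trpc genes. The families, and the marker and partner lists used below, were chosen with earlier results of these data known. This gave 51 of the 55487 genes in the count table. The study asked how leptin changes transcription in the hypothalamic cells that carry its receptor. All mice, the controls included, carried the LepRbeGFP-L10a reporter, which places an eGFP tag on a ribosomal protein in cells with LepRb, the long isoform of the leptin receptor. Male and female mice of 10 to 13 weeks had their food removed at the start of the light phase and were given metreleptin, a leptin analogue, at 5 mg per kg intraperitoneally, or vehicle. Hypothalami were taken after 3 or 10 h, the tagged ribosomes were captured with antibodies to GFP (bead fraction), and the liquid left over was kept as the depleted fraction.

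Each of 14 lysates gave 1 bead and 1 depleted library, 28 in all. At 3 h there were 4 vehicle lysates (m1, m3, f1, f3) and 3 leptin lysates (m24, f2, f4) of mice with intact leptin, labelled WT. At 10 h there was 1 vehicle lysate and there were 3 leptin lysates of WT mice, and 2 vehicle lysates and 1 leptin lysate of Lep ob/ob mice, which make no functional leptin. The WT 3 h, WT 10 h and ob/ob libraries were sequenced in 3 separate runs, so time, genotype and run cannot be told apart, whereas leptin and vehicle were compared within a run. Nothing in the labels says whether a lysate held 1 mouse or several, so p-values measure only the spread between these lysates. Total counts were 19649105 to 42267040 per library. Lepr, the leptin receptor gene, was at 6.51 to 12.4 CPM (counts scaled to the library's size) in beads and at 1.45 to 3.15 CPM in the depleted fraction, and Lepr, Agrp, Npy and Pomc were each higher in beads in 14 of 14 lysates, as the labels of the fractions require. Lysates m3 and f2 also held pituitary transcripts, whose summed level reached 3060 CPM in the depleted fraction of f2; in the ob/ob leptin lysate it was 148 CPM.

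In these channel families a large alpha subunit forms the pore of sodium and calcium channels, and smaller auxiliary subunits set its surface density and gating. HCN channels open on hyperpolarisation and carry the pacemaker current, and TRPC channels are cation channels opened downstream of phospholipase C. In hypothalamic neurons leptin is known to act on membrane potential, and TRPC channels have been placed downstream of its receptor in Pomc neurons.

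Most channel genes were unequally distributed between the fractions, in both directions. Of the 48 members with enough counts to test, 14 were higher and 21 lower in beads, and 13 did not pass the test (edgeR quasi-likelihood test with the lysate as a block, adjusted p under 0.05 over all genes tested). Over all 19682 genes, 77.9% were called, 38.6% as higher and 39.3% as lower. The members' share called was no larger than this background. Their median log2 fold change was -0.09, beside -0.01 over all genes. Only Trpc6, Trpc4 and Cacng6 exceeded a doubling in beads, and Cacna1d, Cacna1g, Cacna2d4, Cacng7 and Scn4b were below the matching limit in the other direction. Those were 3 and 5 of 48 members, beside 3.79% and 13.9% of all genes. Scaling by library totals in place of TMM moved the median of all genes to -0.19 and gave 12 members higher and 31 lower, with 5393 genes higher and 9925 lower in all. Directions below are relative to the other transcripts of a library, and fewer cells of a type and less RNA per cell cannot be told apart in such data. The comparison also sets ribosome-bound RNA of LepRb cells against total RNA of the rest, so translation and cell type cannot be told apart. Markers of other cells moved with the fraction: 12 of 12 astrocyte, 12 of 12 oligodendrocyte and 12 of 12 microglial genes were lower in beads, with medians of -1.16, -1.59 and -1.68. Of these 36 markers 0 were at a count of 0 in any library, and summed astrocyte levels were 780 to 1610 CPM in beads and 1680 to 2150 CPM in the depleted fraction. Other lists were mixed. Of 12 endothelial and mural genes 3 were higher and 4 lower (median -0.02). Of 8 ependymal and tanycyte genes 1 was higher and 6 lower (median -0.80). Among 6 general neuron markers 4 were higher and 1 lower (median 0.31), and 9 of 9 LepRb neuron markers were higher (median 3.31). The part of cell types in the values of the channel genes was not tested.

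**Figure D1:**
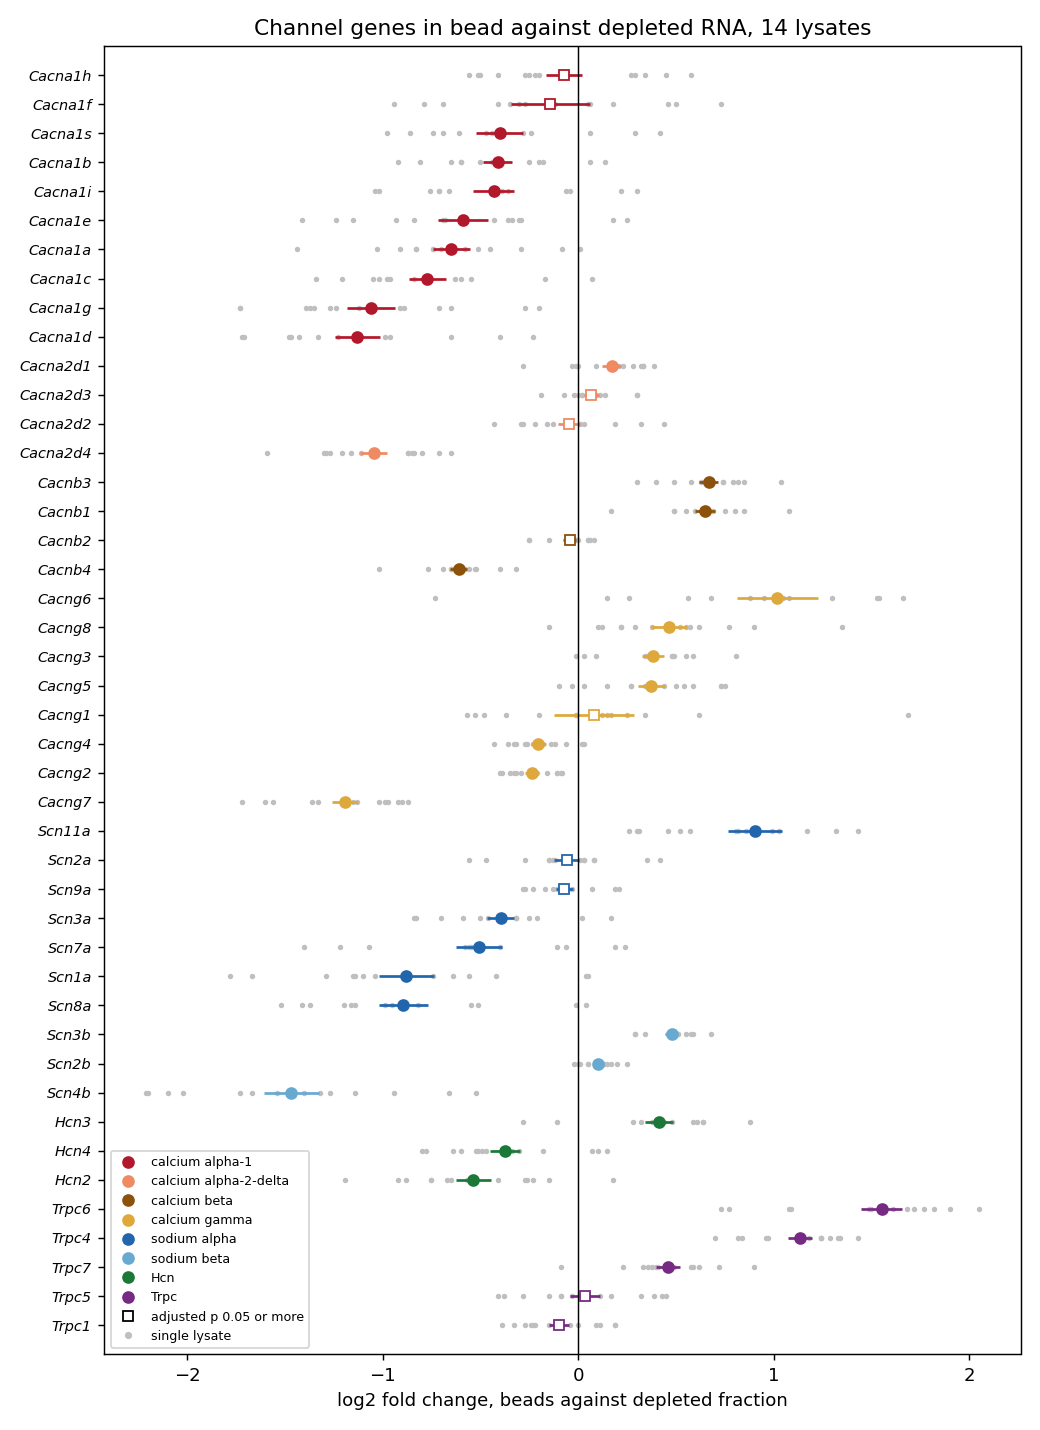
Log2 fold change of beads against the depleted fraction for 44 of the 48 tested channel genes, with the standard error as a bar, coloured by family; open squares did not pass an adjusted p of 0.05 and grey dots are the 14 single lysates. Trpc6 (1.55) and Trpc4 (1.13) stand at the upper end and Scn4b (-1.47) at the lower end.

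Of the 6 TRPC genes tested, 3 were higher in beads, Trpc4, Trpc6 and Trpc7. Trpc4 (ENSMUSG00000027748, chromosome 3, 54156035 to 54318471, plus strand, GRCm38) ranged from 13.1 to 21.7 CPM in beads (median 17.7) and from 5.88 to 10.8 CPM in the depleted fraction (median 7.8). The lowest bead library lay above the highest depleted one. Its level in beads was 2.19-fold that of the depleted fraction (log2 1.13, SE 0.0606, adjusted p = 2.08e-12), in 14 of 14 lysates. Trpc6 (ENSMUSG00000031997, chromosome 9, 8544142 to 8680741, plus strand) ranged from 3.14 to 8.31 CPM in beads (median 5.68) and from 1.06 to 2.53 CPM in the depleted fraction (median 1.84), again with no overlap. Its fold was 2.93 (log2 1.55, SE 0.106, adjusted p = 6.25e-11), the largest of the 48 in beads, and 14 of 14 lysates shared the direction. Both encode pore-forming subunits, Trpc6 of the group that diacylglycerol opens. Trpc7, of that same group, was at 10.9 to 17.2 CPM in beads and 7.06 to 12.5 CPM in the depleted fraction, and was higher in 13 of 14 lysates (log2 0.46, SE 0.0616).

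Trpc5, the closest relative of Trpc4, was at 5.66 to 10.4 CPM in beads and 6.15 to 9.45 CPM in the depleted fraction, with 7 lysates on either side (log2 0.04, SE 0.0762, adjusted p = 0.681). Library totals as the scale turned its value to -0.14. Trpc1, which forms mixed channels with other TRPC proteins, had a log2 value of -0.10 (SE 0.0509, adjusted p = 0.0839). It passed as lower in beads with DESeq2 (-0.14, adjusted p = 0.0243), with library totals (-0.28) and without lysate f1 (-0.12), f2 (-0.12) or ob/ob vehicle 2 (-0.15). Trpc2, a pheromone transduction channel in rodents, had a count of 0 in 28 of 28 libraries. However, 97.5% of its exon bases also belong to Xntrpc on the same strand, and how reads of shared bases were counted was not given. Absent expression and reads left unassigned cannot be told apart here.

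The stretches just upstream of Trpc4 and Trpc6 are printed because these were the members highest in beads. They are the 250 bases before the RefSeq transcript start on GRCm38.p6, plus strand, for Trpc4 at chr3:54155807-54156056 and for Trpc6 at chr9:8543892-8544141. Capitals mark matches to 4 searched motifs on either strand: a STAT site (TTCNNNGAA, with N any base), a GC box (GGGCGG), a cyclic AMP response element (TGACGTCA) and a TATA box (TATAAA).
Trpc4: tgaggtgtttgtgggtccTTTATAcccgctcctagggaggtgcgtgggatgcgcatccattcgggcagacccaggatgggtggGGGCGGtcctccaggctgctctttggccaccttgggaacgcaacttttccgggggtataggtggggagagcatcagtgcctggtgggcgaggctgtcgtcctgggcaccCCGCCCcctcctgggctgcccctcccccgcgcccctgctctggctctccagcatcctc
Trpc6: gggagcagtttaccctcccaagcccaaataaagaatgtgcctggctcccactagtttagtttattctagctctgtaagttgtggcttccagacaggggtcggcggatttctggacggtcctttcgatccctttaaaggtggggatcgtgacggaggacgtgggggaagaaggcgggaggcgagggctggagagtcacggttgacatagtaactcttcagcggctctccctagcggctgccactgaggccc
The Trpc4 stretch held 2 GC boxes and 1 TATA box match, the latter on the opposite strand and far from the start, and the Trpc6 stretch held no match. Upstream sequences were matched for 38 of the 51 members, 49 in all. A STAT site stood in 10.2% of them (Cacna1c, Cacna1i, Scn2a, Scn2b and Scn9a) and in 7.02% of 32851 mouse promoters of that length. GC boxes stood in 38.8% against 32.7%, TATA boxes in 6.12% against 12.4%, and cyclic AMP response elements in 0 against 1.55%. These are letter matches and say nothing of binding.

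Among the HCN genes, Hcn2 and Hcn4 were lower and Hcn3 was higher in beads. Hcn2, the most abundant of the 4 in CPM per kb of exon in both fractions, was at 71.8 to 187 CPM in beads (median 105) and 130 to 223 CPM in the depleted fraction (median 159). It was lower in 13 of 14 lysates (log2 -0.54, SE 0.0899, adjusted p = 3.73e-05), although the ranges overlapped. Hcn4, the slowest-gating isoform, followed with 13.7 to 38.1 against 22.3 to 35.5 CPM (log2 -0.37, SE 0.0752). Hcn3 was at 14.6 to 38.4 CPM in beads and 15.3 to 25.5 CPM in the depleted fraction and was higher in 12 of 14 lysates (log2 0.41, SE 0.0713, adjusted p = 2.57e-05). Of its exon bases, 17.1% overlap Pklr on the opposite strand, and the library kit did not mark strand. Family sums of CPM per kb of exon, and the members' shares of them, were added after seeing the data and were not tested. By this sum the HCN genes were lower in beads (48.2 ± 13.7, SD, n = 14) than in the depleted fraction (62.2 ± 9.46), in all but 1 lysate. Hcn2 made up 75% of the bead sum and 82.2% of the depleted sum, and Hcn3 made up 13.5% and 7.64%.

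Of the 10 calcium channel alpha-1 genes, which encode the pore and voltage sensors, 8 were lower in beads, 0 higher and 2 did not pass. The lowest was Cacna1d (ENSMUSG00000015968, chromosome 14, 30039939 to 30491455, minus strand), the L-type CaV1.3 pore linked to neuronal pacemaking. It was at 10.8 to 28.8 CPM in beads (median 15.4) and 30.7 to 42.2 CPM in the depleted fraction (median 36.5), with no overlap. This was a 2.19-fold lower level (log2 -1.13, SE 0.114, adjusted p = 1.1e-07), in 14 of 14 lysates. The other brain L-type gene, Cacna1c, was at 26.4 to 87.7 against 62.2 to 84.7 CPM (log2 -0.77, SE 0.095, adjusted p = 1.13e-06).

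The T-type genes, whose channels open near rest and support burst firing, differed among themselves. Cacna1g was at 39.1 to 156 CPM in beads (median 62) and 110 to 193 CPM in the depleted fraction (median 150), lower in 14 of 14 lysates (log2 -1.06, SE 0.123). Cacna1i was lower in 12 of 14 (log2 -0.43, SE 0.104, adjusted p = 0.0012). Cacna1h, at 17.5 to 47.1 against 23.4 to 38.5 CPM, did not pass (log2 -0.07, SE 0.0943, adjusted p = 0.492), but did with library totals (-0.25, adjusted p = 0.0296). The neuronal high-voltage genes Cacna1a (P/Q-type), Cacna1e (R-type) and Cacna1b (N-type), which serve transmitter release, were lower by 0.65, 0.59 and 0.41 on the log2 scale. Among the pores that are mainly known outside the brain, muscle Cacna1s was lower (log2 -0.40, at no more than 3.09 CPM), and retinal Cacna1f was at no more than 0.519 CPM and did not pass. For Cacna1s, 20% of exon bases lie opposite an antisense gene. As shares of the summed alpha-1 level per kb, Cacna1b was 20.6% in the depleted fraction and 24.6% in beads and Cacna1h 6.07% and 9.15%, each larger in beads in 14 of 14 lysates. Cacna1g was 29.8% and 22.7% and Cacna1d 5.77% and 4.17%, larger in beads in 0 of 14.

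The auxiliary calcium channel genes showed both directions. The cytoplasmic beta subunits bring alpha-1 subunits to the membrane, and Cacnb3 and Cacnb1 were higher in beads in 14 of 14 lysates. Cacnb3 was at 161 to 277 CPM in beads (median 236) and 125 to 162 CPM in the depleted fraction (median 148), with a log2 value of 0.67 (SE 0.0477, adjusted p = 1.09e-10). Cacnb1 was at 125 to 221 against 95.3 to 125 CPM (log2 0.65, SE 0.0509, adjusted p = 4.36e-10). Cacnb4 was lower in every lysate, at 96 to 149 CPM in beads and 171 to 215 CPM in the depleted fraction, with no overlap (log2 -0.61, SE 0.0433, adjusted p = 1.02e-10). A non-coding transcript on the opposite strand covers 16% of Cacnb4 exon bases. Cacnb2 did not pass (log2 -0.04, SE 0.0336, adjusted p = 0.249). Within the beta subunits, Cacnb4 was 12.1% of the summed beta level per kb in beads and 23.8% in the depleted fraction, and Cacnb3 was 48.6% and 39.9%. The beta genes were the only ones of the 8 groups whose summed level per kb was higher in beads in all 14 lysates (118 ± 12.3 against 89.7 ± 3.75, SD, n = 14).

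Alpha-2-delta genes encode extracellular subunits that traffic the channel to release sites and, for the first pair, bind gabapentin. Cacna2d1 was at 90.3 to 152 CPM in beads and 82.6 to 129 CPM in the depleted fraction (log2 0.17, SE 0.048, adjusted p = 0.00288). It was higher in 11 of 14 lysates, and library totals brought it to -0.01. Cacna2d4, known from the retina, was the low one, at 4.87 to 10.2 CPM in beads and 9.05 to 18.4 CPM in the depleted fraction, lower in 14 of 14 lysates (log2 -1.05, SE 0.0705, adjusted p = 4.94e-11). Cacna2d2 (-0.05, SE 0.0578) and Cacna2d3 (0.07, SE 0.039) did not pass.

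The gamma genes mostly encode TARPs, auxiliary subunits of AMPA receptors. Cacng7 (ENSMUSG00000069806, chromosome 7, 3332955 to 3368221, plus strand) had the largest level per kb of the gamma genes in both fractions and the largest deficit in beads. It was at 58.4 to 137 CPM in beads (median 99.6) and 177 to 265 CPM in the depleted fraction (median 227), without overlap, 2.29-fold lower in beads (log2 -1.19, SE 0.0671, adjusted p = 1.06e-11). Its neighbour Cacng8 (log2 0.47, SE 0.0917) and the related Cacng5 (0.37, SE 0.068), the other type II TARP, were higher in beads, in 13 and 12 of 14 lysates. Cacng3 was also higher (0.38, SE 0.0556), and Cacng2, or stargazin, and Cacng4 were slightly lower (-0.24 and -0.20, SE 0.035 and 0.0392). Cacng7 was 55.2% of the summed gamma level per kb in the depleted fraction and 34.3% in beads. Cacng6, a muscle-type gamma subunit, was higher in beads (1.02, SE 0.207) from a level of at most 1.13 CPM, and Cacng1 did not pass (0.08, SE 0.205).

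Of the 8 sodium channel alpha genes tested, 4 were lower in beads and 1 was higher. Scn8a (Nav1.6), the main pore of mature axon initial segments, was at 40.7 to 185 CPM in beads (median 77.6) and 117 to 180 CPM in the depleted fraction (median 152), with a log2 value of -0.89 (SE 0.124, adjusted p = 7.99e-06). Scn1a (Nav1.1), prominent in interneurons, was at 31.5 to 154 against 101 to 157 CPM (log2 -0.88, SE 0.141, adjusted p = 3.86e-05). In both genes a single bead library, f1, made the top of the range, and 13 and 12 of 14 lysates were lower in beads. Scn7a, the sodium-sensing NaX channel, and Scn3a were lower (-0.51 and -0.40). Scn2a (Nav1.2) and Scn9a (Nav1.7) did not pass, with values of -0.06 (SE 0.0639) and -0.07 (SE 0.0437). Scn2a took 33.5% of the summed alpha level per kb in beads and 25% in the depleted fraction, a larger share in 14 of 14 lysates.

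Scn11a (Nav1.9), a pore best known from pain-sensing neurons, was the exception among the alpha genes, though at a low level: 0.497 to 1.27 CPM in beads (median 0.988) and 0.374 to 0.664 CPM in the depleted fraction (median 0.442). It was higher in beads in 14 of 14 lysates (log2 0.91, SE 0.139, adjusted p = 5.75e-06). The other peripheral pores, Scn4a of skeletal muscle and Scn10a (Nav1.8), had too few counts to be tested and reached at most 0.311 and 0.259 CPM. Beta subunits are single-span proteins that adjust gating and adhesion. Scn4b (ENSMUSG00000046480, chromosome 9, 45138395 to 45154152, plus strand), linked to resurgent current, was at 11.7 to 59.3 CPM in beads (median 28.5) and 54.4 to 152 CPM in the depleted fraction (median 77.6). It was 2.77-fold lower in beads (log2 -1.47, SE 0.141, adjusted p = 1.35e-07), in 14 of 14 lysates, the largest deficit of the 48. Scn3b was higher, at 129 to 193 against 87.8 to 136 CPM (log2 0.48, SE 0.0345, adjusted p = 1.26e-10). Scn2b had a small difference (0.10, SE 0.0295, adjusted p = 0.0034). With library totals it passed in the other direction (-0.07, adjusted p = 0.0229), so its direction depended on the scale.

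Bead values varied with coding length across all genes. The coding sequence of the longest annotated transcript was used, and genes were placed in 5 bins. Over the 682 other genes with a coding length over 5 kb the median was -0.51, and 15.1% were positive, whereas over 4847 genes under 1 kb it was 0.26 and 65.1% were positive. All 18 tested pore genes of calcium and sodium channels lie in the longest bin, with a median of -0.42 and 1 positive value, that of Scn11a. The 11 members under 1 kb, gamma and sodium beta genes, had a median of 0.08, and the 10 members of 2 to 3 kb, which include the TRPC genes, had 0.23 beside -0.06 for other genes. Trpc4 and Trpc6 lay above, and Scn4b and Cacng7 below, the middle 50% of other genes of their length. In the longest bin that range was -0.84 to -0.19, and single pore genes lay on both sides of it. Among them were Scn11a above and Cacna1d, Cacna1g, Scn8a and Scn1a below. Length was one of several properties that differ between these genes, and its part in the difference between fractions was not tested.

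**Figure D2:**
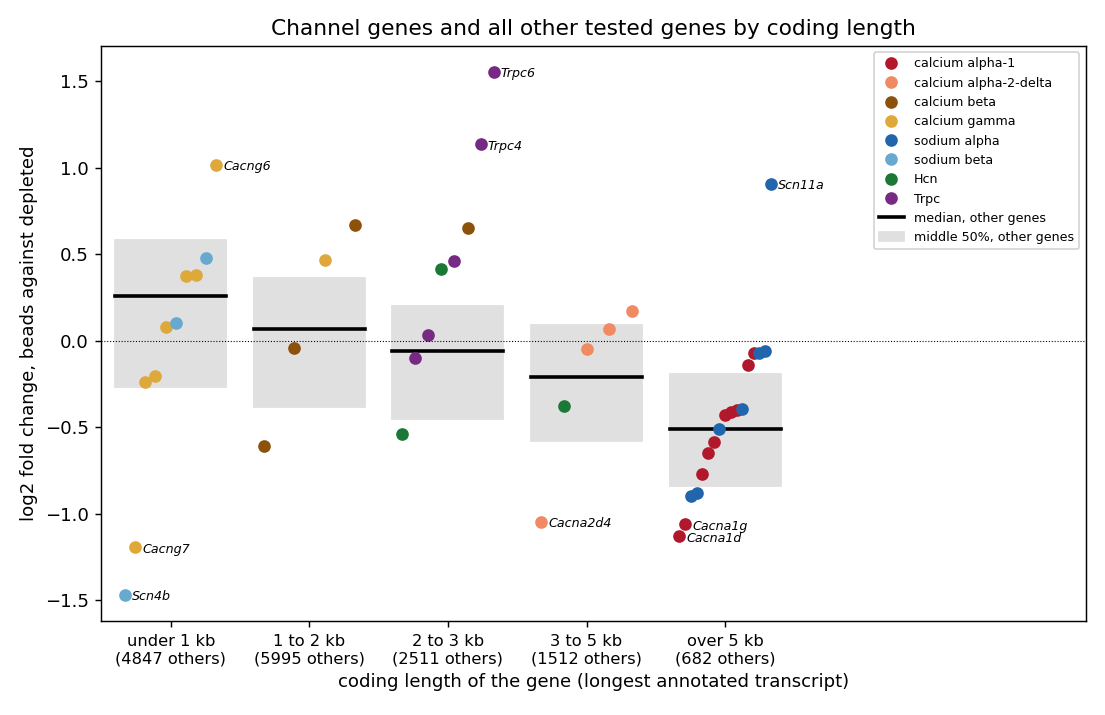
Log2 fold change of beads against the depleted fraction by coding length. Dots are 44 of the channel genes, coloured by family and ordered by value within a bin; black lines are medians and grey boxes the middle 50% of all other tested genes, which move from 0.26 under 1 kb to -0.51 over 5 kb.

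Lysates also differed in their values for long genes. In each lysate the median log2 ratio of beads to depleted RNA was taken over the 18 pore genes and over other genes longer than 5 kb, without a test since genes share libraries. In lysate f1 both were above 0 (0.18 for the pore genes, 0.21 for other long genes), and in f2 they were 0.05 and -0.04. The other WT 3 h lysates had -0.65 to -0.25 for the pore genes. The 4 WT 10 h lysates had -1 to -0.52 for the pore genes and -0.87 to -0.69 for other long genes, and the 3 ob/ob lysates had -0.55 to -0.45 and -0.6 to -0.37. The pore gene median of a lysate thus lay near the median of other long genes in it. Single pore genes spread widely, in WT 10 h leptin lysate 3 from -1.78 (Scn1a) to 0.34 (Cacna1h). The mean log2 CPM of the 36 astrocyte, oligodendrocyte and microglial markers in beads also differed by lysate. It was 4.08 to 5.25 in WT 3 h vehicle (highest in f1) and 3.89 to 4.67 in WT 3 h leptin (highest in f2). WT 10 h had 3.44 to 3.72 with leptin and 4.42 with vehicle, and ob/ob had 3.75 and 4.22 to 4.8. The part of these markers was not tested.

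**Figure D3:**
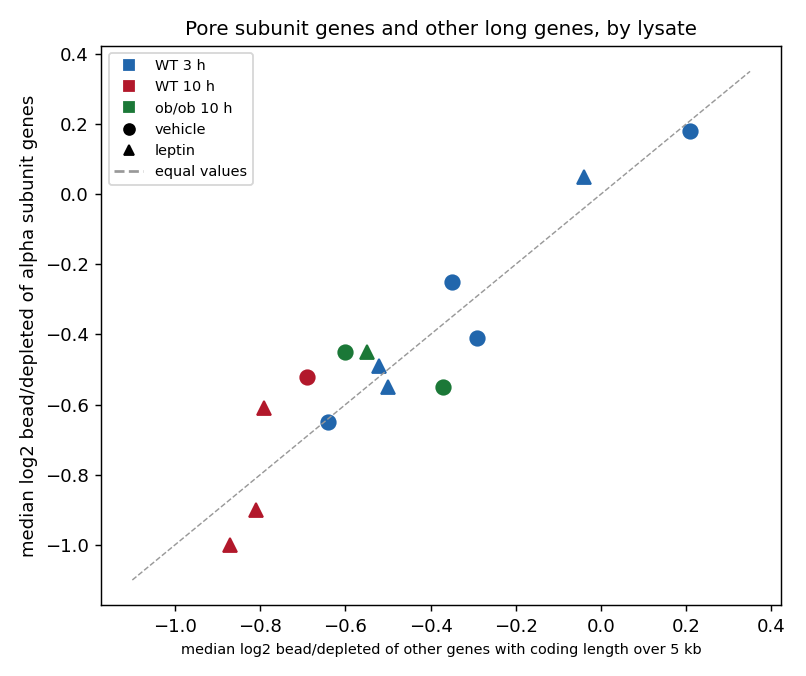
Median log2 ratio of beads to depleted RNA in each of the 14 lysates, for the 18 pore genes (vertical) and for other genes with a coding length over 5 kb (horizontal), coloured by stratum and shaped by arm. Points lie near the dashed line of equal values, from -1 in a WT 10 h leptin lysate to 0.18 in f1.

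Partner genes of the channels were described from a list of 47. Of these 16 were higher and 21 lower in beads, 10 did not pass, and the median was -0.12. Over all genes 77.9% were called, 38.6% as higher and 39.3% as lower, so most genes of any list are called. The counts for the smaller lists below stand beside the same background. The sodium leak channel gene Nalcn (0.17, SE 0.0459) and Fam155a (0.28, SE 0.0353), its folding subunit, were higher, while its large scaffolds Unc79 and Unc80 were lower (-0.47 and -0.52). Among HCN partners, 3 of 4 were lower, including Pex5l, or TRIP8b, the dendritic trafficking subunit (-0.93, SE 0.0657, adjusted p = 1.82e-10). The calcium release channel genes Ryr1, Ryr2 and Ryr3 were lower by 1.27, 1.54 and 2.14, and Itpr2 by 1.05, while Itpr1 was 0.15 higher. Of the 11 TRPC partner and store-operated entry genes, 2 were higher, Stim1 (0.38) and Orai1 (0.27), and 4 were lower. The lower ones were the phospholipase C genes Plcb3 (-1.19), Plcb4 (-0.36) and Plcg1 (-0.15), whose enzymes release diacylglycerol, and Orai2 (-0.14). The sodium channel partners, among them Fgf13, Ank3 and Nfasc, had 3 higher and 5 lower of 8.

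The pattern was next measured within each stratum. In WT mice at 3 h, 33 members were called, 15 higher and 18 lower, where 65% of all genes were called. In WT mice at 10 h the count was 30, with 9 higher and 21 lower, and 62.7% of all genes were called. In ob/ob mice it was 23, with 7 higher and 16 lower, beside 45.4%. Trpc4 was higher by 1.18 (SE 0.0761), 1.13 (SE 0.112) and 1.02 (SE 0.126) in these strata, and Cacng7 was lower by 1.16, 1.26 and 1.11. Scn4b was lower by 1.25, 1.84 and 1.43. The pores Cacna1d and Cacna1g had -0.96 and -0.85 at 3 h, -1.49 and -1.43 at 10 h and -0.99 and -0.95 in ob/ob mice. Scn11a (1, SE 0.212) and Cacng6 (0.96, SE 0.316) passed at 3 h, although the Cacng6 call was lost when m1, m24 or f4 was left out (adjusted p of 0.0535 to 0.0937).

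No member passed the test of a difference between strata. For WT 10 h against WT 3 h, edgeR called 0 of 48 members and 0% of all genes. With an unadjusted p under 0.05 there were 12 members, DESeq2 called 1, Cacna1e (adjusted p = 0.0497), beside 139 of 19682 genes, and limma voom 0. The smallest p values belonged to Scn2a (difference -0.41, SE 0.118, adjusted p = 0.228), Cacna1e (-0.73, SE 0.214, adjusted p = 0.242) and Cacng5 (0.32, SE 0.101, adjusted p = 0.248). Without the lysates m3 and f2, which held pituitary transcripts, edgeR called Cacna1e (-0.71, adjusted p = 0.0366) and Scn8a (-0.62, adjusted p = 0.0383), beside 113 of 19510 genes in all. Of the 10 alpha-1 genes 9 had a negative difference, as had 8 of 8 sodium alpha genes, with family medians of -0.50 and -0.43. Astrocyte markers moved with this difference, with a median of -0.79 and 11 of 12 negative. Endothelial and mural genes had -1.05 with 12 of 12 negative. LepRb neuron markers had 0.39 with 0 of 9 negative, and general neuron markers 0.16 with 1 of 6. Other genes over 5 kb in coding length had bead to depleted medians of -0.3 in WT 3 h and -0.8 in WT 10 h. The part of cell types or of length was not tested.

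For ob/ob against WT at 10 h, 0 of 48 members and 0.0102% of all genes were called, 3 members were under 0.05 before adjustment, and DESeq2 called 1 and limma voom 0. Cacng5 had the smallest p. Its bead values were 44.4 CPM in the WT vehicle library and 37.7, 44.8 and 47.8 CPM in the WT leptin libraries, against 31.5 and 28.6 CPM in ob/ob vehicle and 32.1 CPM in ob/ob leptin. Depleted values were 29.4, 22.8, 26.9 and 28.4 CPM in WT and 33.9, 28 and 32.7 CPM in ob/ob in the same order. Bead values of WT at 10 h thus all lay above those of ob/ob, and depleted values lay the other way except for 1 ob/ob library inside the WT range. The difference of -0.70 (SE 0.124) had an adjusted p of 0.131. It passed with DESeq2 (adjusted p = 0.0024), which called 28 genes in all, and in edgeR without lysates m3 and f2 (adjusted p = 0.0432), where 19 genes were called. Trpc6 had 6.66, 6.23, 6.38 and 6.62 CPM in WT 10 h beads and 4.25, 3.58 and 3.14 CPM in ob/ob beads, with a difference of -0.86 (SE 0.28, adjusted p = 0.808).

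**Figure D4:**
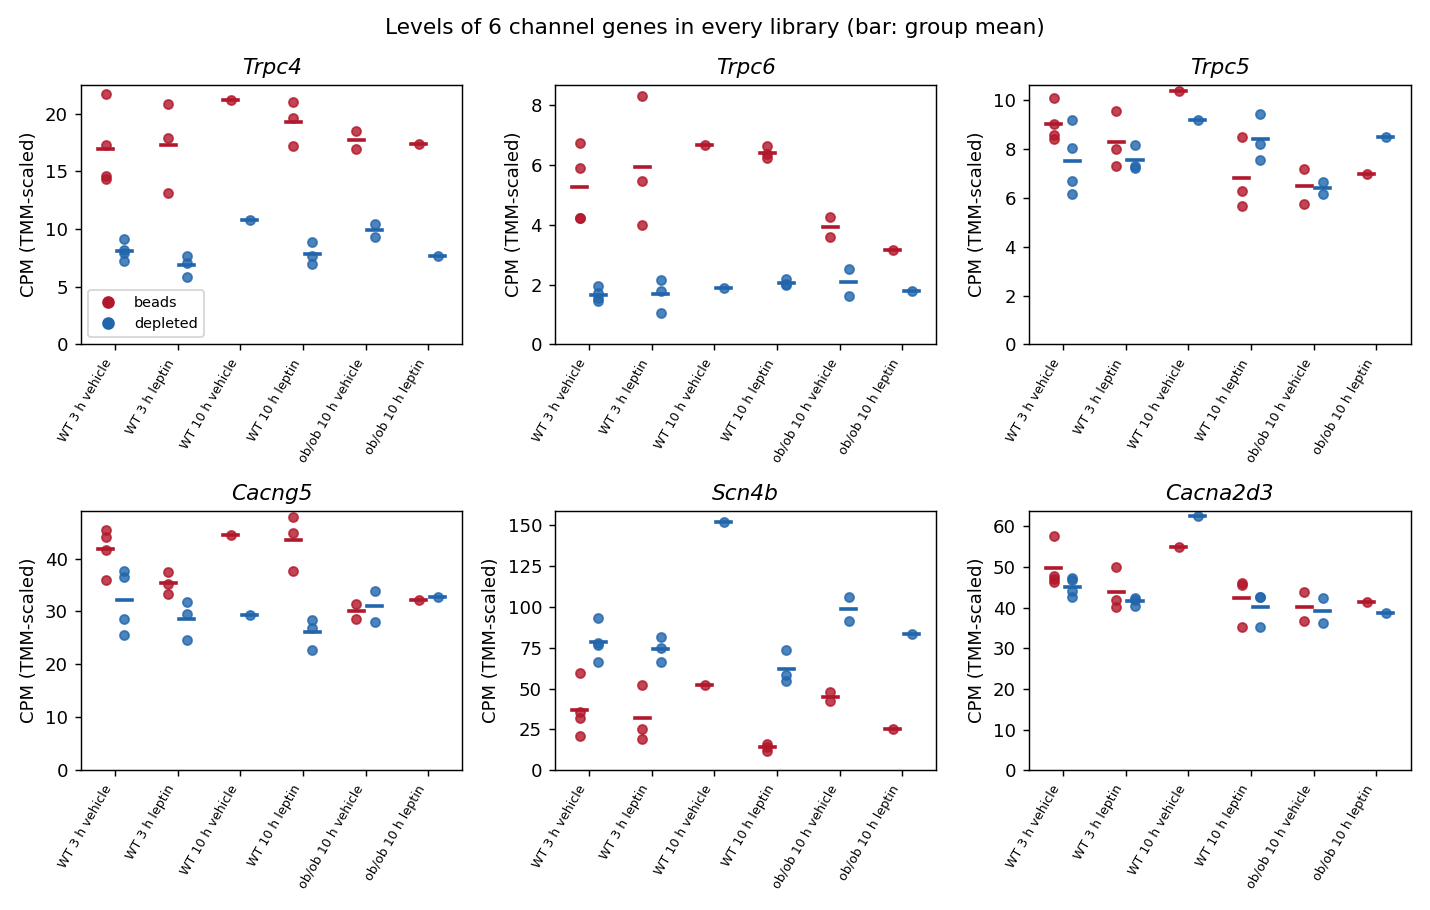
TMM-scaled CPM of 6 channel genes in every library by group, beads in red and depleted fraction in blue, with the group mean as a bar (groups hold 1 to 4 libraries). Trpc4 and Trpc6 separate by fraction in each group, Cacng5 and Trpc6 bead values are lower in ob/ob than in WT at 10 h, and Scn4b and Cacna2d3 depleted values are highest in the 1 WT 10 h vehicle library.

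No channel gene passed the test of leptin against vehicle in beads. At 3 h, 0 of 48 members passed in the edgeR test where 0.022% of all genes did. Before adjustment 5 members were under 0.05, and neither DESeq2 nor limma voom called any (0 of 48). Hcn3 had the smallest p: bead levels were 36.9, 32.6, 38.4 and 31.8 CPM with vehicle and 21.4, 27.7 and 23.6 CPM with leptin. These ranges did not overlap, but the difference (log2 -0.53, SE 0.152) had an adjusted p of 0.656. Cacnb4 had 0.32 (SE 0.105, adjusted p = 0.656). Values were below 0 for 42 of the 48 members, with a median of -0.16, and for 10 of 10 alpha-1 and 8 of 8 gamma genes. The 6 TRPC genes lay between -0.13 and 0.17, with Trpc4 at 0.02 (SE 0.173) and Trpc5 at -0.13 (SE 0.174). Non-neuronal markers moved the same way in these beads: the astrocyte median was -0.52 with 12 of 12 negative, microglia -0.56 with 12 of 12, and endothelial and mural genes -0.76 with 12 of 12, none called. LepRb neuron markers had a median of -0.17 with 8 of 9 negative, and general neuron markers one of -0.01 with 3 of 6 negative, again none called. The part of any of these cells was not tested.

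At 10 h, with the WT and ob/ob effects averaged, 0 of 48 members in beads and 0.022% of all genes passed, 5 members were under 0.05 before adjustment, and DESeq2 and limma voom called 0. Scn4b in beads was at 52.1 CPM in the WT vehicle library and 14.4, 15.9 and 11.7 CPM in the leptin libraries, and at 42.2 and 47.6 CPM in ob/ob vehicle against 25.2 CPM in ob/ob leptin. Leptin libraries were lower in both genotypes, each with 1 library in one arm, and the difference (log2 -1.38, SE 0.416) had an adjusted p of 0.475, or 0.0395 (log2 -1.39) without the 3 h lysates m3 and f2, where 15 of 18035 genes were called. Cacna1e (-0.58, SE 0.222) and Cacnb1 (0.37, SE 0.138) followed. The TRPC genes lay between -0.38 and 0.17, with Trpc4 at -0.10 (SE 0.191) and Trpc5 at -0.27 (SE 0.195). With 1 leptin effect fitted over all 14 lysates, 0 members and 0.022% of all genes passed in beads, 6 were under 0.05 before adjustment, and DESeq2 and limma voom called 0. Cacna1e (-0.38, SE 0.148, adjusted p = 0.369) and Cacna2d2 (-0.30, SE 0.121) were among those with the smallest p. Without lysates m3 and f2, 4 members fell: Scn4b (-1.22, adjusted p = 0.00609), Cacng7 (-0.43, adjusted p = 0.0452), Cacna1e (-0.53, adjusted p = 0.0466) and Scn1a (-0.66, adjusted p = 0.0495). In that fit 423 of 18035 genes were called over the whole table, 340 of them lower, against 4 of 18212 with all lysates. With all 14 lysates, 12 of 12 astrocyte markers were below 0 (median -0.66), as were 6 of 9 LepRb neuron markers (median -0.08). Summed astrocyte levels in WT 10 h beads were 985 CPM with vehicle and 780 to 863 CPM with leptin. Oligodendrocyte levels were 2110 against 1140 to 1280 CPM, and microglial levels 55.6 against 26.7 to 37.1 CPM. LepRb neuron markers lay the other way, at 2260 against 2440 to 2990 CPM. The part of these cells was not tested.

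In the depleted fraction, 3 members passed in 1 or another leptin comparison. At 3 h there were 0 of 48, beside 0% of all genes, 9 members were under 0.05 before adjustment, and DESeq2 and limma voom called 0. The smallest p was that of Scn3b (-0.25, SE 0.0666, adjusted p = 0.368). At 10 h over both genotypes there were 0 members, beside 0.00523% of all genes, 16 were under 0.05 before adjustment, DESeq2 called 2 and limma voom 0. Scn4b (-0.77, SE 0.139, adjusted p = 0.0942), Cacna2d3 (-0.33, SE 0.0808) and Cacnb2 (0.20, SE 0.0569) had the smallest p. The DESeq2 calls were Scn4b (adjusted p = 1.71e-05) and Cacna2d3 (adjusted p = 0.0469), among 116 of 19115 genes.

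In WT mice at 10 h alone 2 members fell, beside 0.277% of all genes. Scn4b was at 152 CPM in the vehicle library and at 58.5, 73.5 and 54.4 CPM in the leptin libraries (log2 -1.30, SE 0.178, adjusted p = 0.0177). Cacna2d3 was at 62.5 CPM with vehicle and at 35.3, 42.6 and 42.6 CPM with leptin (log2 -0.65, SE 0.105, adjusted p = 0.0184). Both results rest on 1 vehicle lysate, which in each gene was the highest of the 14 depleted libraries, and its spread was taken from the other groups. In ob/ob mice the same contrast gave -0.24 (SE 0.205) for Scn4b and -0.01 (SE 0.121) for Cacna2d3, and at 3 h the Scn4b ranges overlapped, with 66.2 to 93.5 CPM in vehicle and 66.5 to 81.4 CPM in leptin. Leaving out WT 10 h leptin lysate 1 or 3 ended both calls (adjusted p of 0.0706 to 0.0733).

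With 1 leptin effect over all lysates, Scn3b fell in the depleted fraction, the 1 member of 48 beside 0.623% of all genes. It was at 112, 122, 115 and 107 CPM in the 3 h vehicle libraries and 107, 87.8 and 95.6 CPM with leptin, at 136 CPM in WT 10 h vehicle and 109, 117 and 111 CPM with leptin, and at 120 and 119 CPM in ob/ob vehicle and 112 CPM with leptin. Every leptin library lay below, or level with, the vehicle libraries of its stratum. The change was -0.22 (SE 0.0489, adjusted p = 0.0463), but leaving out 1 lysate ended the call in 11 of 14 fits (adjusted p of 0.0547 to 0.231) and did not without m24, f3 or ob/ob vehicle 1. Limma voom gave an adjusted p of 0.0525, and edgeR without lysates m3 and f2 gave 0.121. The ob/ob leptin lysate, with 148 CPM of summed pituitary transcripts in its depleted library, was kept in that fit. In beads the Scn3b ranges of the arms overlapped at 3 h, with 135 to 169 CPM in vehicle and 129 to 172 CPM in leptin. Markers of other cells moved with this effect in the depleted fraction: 12 of 12 microglial genes were below 0 (median -0.47, 5 called lower) and 11 of 12 astrocyte genes (median -0.24, 2 called lower). Summed microglial levels at 3 h were 111 to 159 CPM with vehicle and 79 to 100 CPM with leptin. Their part was not tested.

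The leptin effect was then compared between the fractions, and no member passed. At 3 h it was 0 of 48 members and 0.0102% of all genes, 0 members were under 0.05 before adjustment, and DESeq2 and limma voom called 0. Without lysates m3 and f2 Cacna1g passed at 3 h (-0.80, adjusted p = 0.04), beside 79 of 19510 genes. At 10 h it was 0 members and 0% of all genes, with 2 members at an unadjusted p under 0.05, Cacng3 (0.50, SE 0.151, adjusted p = 0.561) and Cacnb1 (0.36, SE 0.142), and again 0 by the other tools. Of the 47 partner genes, 0 passed in the bead comparisons of leptin and vehicle and 1 fell in the depleted fraction of WT mice at 10 h.

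**Figure D5:**
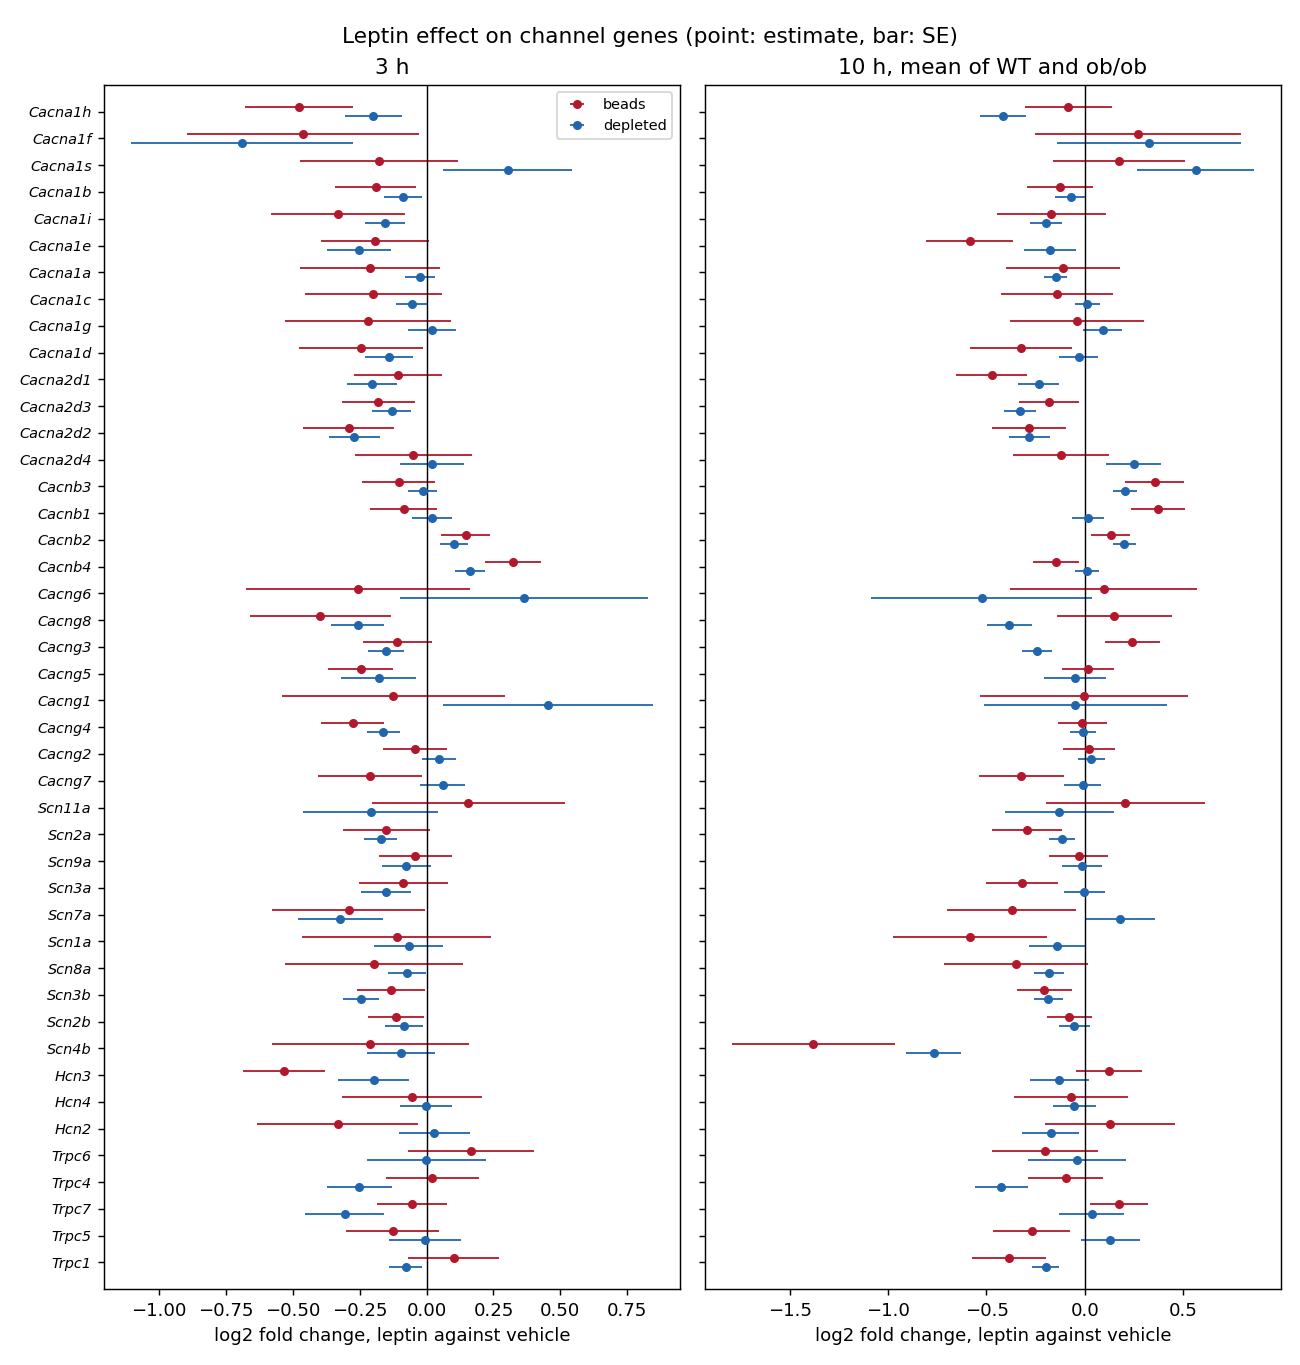
Log2 fold change of leptin against vehicle for 44 of the 48 tested channel genes at 3 h (left) and 10 h (right, mean of WT and ob/ob), beads in red and depleted fraction in blue, bars showing the standard error. No point passed an adjusted p of 0.05, and Scn4b has the largest change at 10 h, -1.38 in beads and -0.77 in the depleted fraction.

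Between ob/ob and WT mice at 10 h, 0 members passed in beads, beside 0.472% of all genes, 7 were under 0.05 before adjustment, DESeq2 called 1, Cacng5 (adjusted p = 0.0472), beside 228 of 18212 genes, and limma voom 0. In edgeR Cacng5 (-0.50, SE 0.135, adjusted p = 0.176), Trpc6 (-0.90, SE 0.272, adjusted p = 0.241) and Scn9a (-0.44, SE 0.151) had the smallest p. In the depleted fraction 2 of 48 members passed, beside 5.57% of all genes. Cacna2d3 was lower in ob/ob (-0.37, SE 0.081, adjusted p = 0.0184), at 42.3, 36.2 and 38.8 CPM against 62.5, 35.3, 42.6 and 42.6 CPM in WT. The ranges overlapped. The arms had equal weight in the WT mean, so the high vehicle library named above counted as much as the leptin libraries together. Cacng7 was higher in ob/ob (0.35, SE 0.0939, adjusted p = 0.0491), at 265, 210 and 237 CPM against 186, 198, 177 and 182 CPM in WT, with no overlap. It passed in only 2 of 12 fits that left out a lysate (without m3 or ob/ob vehicle 2), with adjusted p of 0.0507 to 0.152 in the others. Markers of other cells moved with genotype: in the depleted fraction 5 of 5 erythrocyte genes were higher in ob/ob (median 1.10) and the endothelial and mural median was 0.34 with 1 of 12 called, while in beads these medians were 1.27, with 2 of 5 called, and 0.99, with 0 of 12 negative. Their part was not tested.

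Between 10 and 3 h in WT mice, 0 members passed in beads, beside 0% of all genes, 12 were under 0.05 before adjustment, and DESeq2 and limma voom called 0. Cacna1g (-0.92, SE 0.299, adjusted p = 0.197) and Scn8a (-0.91, SE 0.32) were among those with the smallest p, and without lysates m3 and f2 Cacna1g passed (-0.81, adjusted p = 0.0474), beside 124 of 18035 genes. In the depleted fraction 3 passed, beside 7.18% of all genes. Cacng7 was lower at 10 h (-0.33, SE 0.0786, adjusted p = 0.0242): 186, 198, 177 and 182 CPM against 200 to 252 CPM in the 7 libraries of 3 h, without overlap. Scn3b was higher (0.24, SE 0.0591, adjusted p = 0.0261), at 109 to 136 CPM against 87.8 to 122 CPM, and Cacna1e was higher (0.39, SE 0.106, adjusted p = 0.0488), at 92.7 to 129 CPM against 70.3 to 111 CPM, both with overlap. Leaving out a lysate ended the Cacna1e call in 7 of 13 fits, the Cacng7 call in 5 (without m24, f2, f4 or WT 10 h leptin 2 or 3) and the Scn3b call in 2 (without WT 10 h leptin 2 or 3), with adjusted p of 0.0525 to 0.093. The Cacna1e call stayed without m3, f4, WT 10 h leptin 1 or any 1 ob/ob lysate. Astrocyte medians of 10 against 3 h in WT mice were -0.70 in beads and -0.03 in the depleted fraction. In the depleted fraction erythrocyte genes had a median of -0.55, with 5 of 5 negative and 3 called lower, and endothelial and mural genes one of -0.15, with 2 of 12 called lower. In beads the endothelial and mural median was -1.51 with 12 of 12 negative. Their part was not tested.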

How the data were processed

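Gene counts of 28 hypothalamic libraries were used as the authors deposited them, as whole counts per gene that are not normalized. Per the labels' protocols the RNA had an integrity number of at least 8, libraries were poly(A)-selected with a kit that does not mark strand, and single-end reads of 50 cycles were made with 4 libraries per lane. STAR 2.7.6a and GRCm38.p6 are named in the submitters' processing notes. The read counter, its strand option and its gene models were not given in the sources used here. Vehicle is called PBS in the labels and 0.9% saline in the protocol.

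The members and lists were chosen with earlier results of these data known. Counts were scaled by TMM and tested with the edgeR quasi-likelihood F test (edgeR 4.0.16, R 4.3.3, robust, two-sided) on genes that reached 10 counts in 3 or more libraries of the fit. P-values were adjusted by Benjamini-Hochberg over every gene in the fit and called under 0.05. Fractions were compared with the lysate as a block, since both libraries of a lysate come from the same tissue per the labels. In 10 lysates of groups of 3 or more, the deviations of the paired libraries correlated at 0.0851 to 0.349, and 10 of 10 correlated best with their own partner. Strata and arms were compared with a coefficient for each of 6 groups, which leaves 8 residual degrees of freedom within a fraction, and groups of 1 library were assumed to vary like the others. In the comparisons of strata, genotype and time, both arms had equal weight whatever their number of libraries. CPM values are TMM-scaled, and levels per kb use the exon length of GENCODE M21. Lysate ratios used a pseudocount of 0.1 CPM. The fits were tested on simulated counts. Among 26 replicate pairs 0 were identical.

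Named in the fraction comparison were, in each family, the called members with the 3 largest positive and 3 largest negative changes, the Hcn and tested Trpc genes and the T-type genes; the other members were added for completeness. The values of some members are not reported here, though these members enter every fit, count and median. Elsewhere each called member was named, or the 3 with the smallest unadjusted p. Alternatives were DESeq2 size factors or library totals in edgeR, no filter, DESeq2 1.42.0, limma voom (limma 3.58.1), leaving out each lysate, leaving out the lysates m3 and f2, vehicle lysates only, a glial marker covariate, a term for the letter in the 3 h lysate names, and no block.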

Additional observations from a re-analysis of the deposited data

Results flagged for a closer look

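Among 76 groups of 4 libraries of single members, 4 held a library far from the others, and in each it was lysate f1 of the WT 3 h vehicle group. Chance flags about 1 in 20 groups, which is near the share seen here. The groups were 38 members in the same 4 lysates, in both fractions, so they share libraries and are not independent. In f1 beads Cacna2d3, an alpha-2-delta gene, was at 57.7 CPM where the other 3 had 46.2 to 47.8 CPM, Cacnb3, a beta subunit gene, was at 194 CPM beside 251 to 262 CPM, and Scn7a, the NaX channel gene, was at 6.56 CPM beside 3.41 to 3.76 CPM. In the depleted fraction of f1 the sodium beta gene Scn2b was at 313 CPM beside 259 to 267 CPM. Lysate f1 also had the highest bead to depleted ratio over long genes (median 0.21 on the log2 scale). Its beads had the highest mean log2 CPM of the glial markers too, 5.25, in a group that ranged from 4.08. The part of either was not tested.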

How the results depend on the processing

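The 35 calls between fractions held in every alternative except library totals (33 of 35) and vehicle lysates only (34 of 35); without the lysate block 35 members were called, 35 of them shared. The fit without the replicate block was run for the comparison of fractions over all lysates only. Values that changed sign with library totals included Cacna2d1 (-0.01), Scn2b (-0.07, called as lower), Cacna2d3 (-0.11, called as lower) and Trpc5 (-0.14). Trpc5 was 0.00 with DESeq2 or its size factors and -0.01 to 0.07 when a lysate was left out.

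Counts of members called in the other comparisons depended on the processing, and the cause was not tested. With no filter on low counts they were 13 (bead to depleted difference, WT 10 h against 3 h), 2 (the same, ob/ob against WT), 1 (leptin by fraction at 10 h), 3 and 3 (leptin in beads at 10 h and over all lysates), 2 (genotype, beads), 10 (time, beads), and in the depleted fraction 4, 6, 9 and 15 (leptin at 3 h, at 10 h, in WT at 10 h and over all lysates), 8 (genotype) and 17 (time). Fold changes barely moved with the filter while p-values did: Scn4b in beads at 10 h kept -1.38, but its adjusted p was 1.5e-13 in place of 0.475. Calls over all genes rose too without the filter: 1199 of 39128 in the WT 10 h against 3 h difference, 613 of 35036 for leptin in beads over all lysates and 1422, 1901 and 2195 of 37504 for leptin over all lysates, genotype and time in the depleted fraction. With all settings as reported these were 0, 4, 119, 1064 and 1372. Without the filter, 109 of 39128 genes were called in the ob/ob against WT difference and 370 for leptin by fraction at 10 h. In beads 465, 394 and 1351 of 35036 genes were called (leptin at 10 h, genotype, time). In the depleted fraction it was 640, 592 and 613 of 37504 (leptin at 3 h, at 10 h and in WT at 10 h). With DESeq2 the counts of members were 1 and 1 in both stratum differences and 1 for genotype in beads. In the depleted fraction they were 2 (leptin at 10 h), 9 (leptin, all lysates), 6 (genotype) and 14 (time). In the last 3, 723, 1366 and 1904 of 19115 genes were called. Limma voom gave 0 (leptin, all lysates), 1 (genotype) and 5 (time) in the depleted fraction, beside 92, 834 and 1494 genes, and library totals gave 7 for time, beside 1443 genes. Without lysates m3 and f2 they were 2 and 1 in the stratum differences, 1 (leptin by fraction at 3 h), 1 and 4 (leptin in beads at 10 h and over all lysates), 1 (time, beads), 0 (leptin, depleted, all lysates, beside 23 of 18920 genes) and 6 (time, depleted, beside 1094). A glial marker covariate gave 5 for genotype and 14 for time in the depleted fraction, beside 1665 and 2125 genes.

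Leaving out 1 lysate moved the counts in the depleted fraction to 0 to 1 (leptin at 10 h; 1 without WT 10 h leptin 2), 0 to 2 (leptin in WT at 10 h), 0 to 6 (leptin over all lysates; 6 without m24), 1 to 6 (genotype; 6 without ob/ob vehicle 2) and 0 to 10 (time; 0 without WT 10 h leptin 3 and 10 without ob/ob vehicle 2). Counts over all genes moved too. Without m24, 258 of 19022 genes were called for leptin over all lysates, beside 119 with all lysates. Without WT 10 h leptin 3, 704 of 18956 were called for time, beside 1372. Without WT 10 h leptin 2, 16 of 19016 were called for leptin at 10 h, beside 1. Without ob/ob vehicle 2, more genes were called for genotype and time than with all lysates. Comparisons that need the 1 WT 10 h vehicle or the 1 ob/ob leptin lysate gave no value without it. The letter term gave 0 members at 3 h. Members under about 1 CPM (Cacng6, Scn11a, Cacna1f) rest on few counts, and Trpc2, Scn4a and Scn10a were too low for a test.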
